A study of Homo sapiens with 4 samples.

Results

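In ME-1 leukaemia cells, 620 accessible regions lay in 112 dense clusters, each a run of at least 5 regions that were open with and without drug. Members were chosen by position and by peak calls: peaks of all 4 lists were merged, regions with a peak in every list were kept as shared, and shared neighbours were chained where the gap between them was at most 12.5 kb. The members made up 2.19% of 28368 shared autosomal regions, which in turn made up 28.2% of 100497 merged regions. They were set against 5966 isolated shared regions, which had no shared neighbour within 50 kb. The presence of a peak in every list was therefore selected on and is no finding.

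The assay was ATAC-seq, in which Tn5 transposase cuts accessible DNA and leaves sequencing adapters there. ME-1, a long-established human myeloid leukaemia line, carries inv(16), the inversion that fuses CBFB to MYH11. The cells were exposed for 6 h to the solvent DMSO or to 1 µM AI-10-49, an inhibitor of the contact between the fusion protein and RUNX1, and there were 2 libraries per group from separate experiments. All groups share the line and its inversion, and there was no untreated or fusion-free group.

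Accessible sites gather in gene-dense stretches, where several promoters lie close together, and around strongly transcribed or cell-type genes, where many enhancers can sit within a short stretch. Dense groups of enhancers of this kind are often called stretch enhancers or super-enhancers and tend to lie at genes that define a cell type. RUNX1 and its partner CBFβ bind many such sites in blood cells. These clusters were built from peak positions alone and were given none of those names.

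The AI-10-49 lists were shorter than the DMSO lists, and the most frequent background recovered from them was higher in reads per base. The DMSO lists held 65614 and 63390 autosomal peaks, and the AI-10-49 lists held 47747 and 52121. The most frequent local background recovered from the lists was 0.0613 and 0.06 reads per base in DMSO and 0.0965 and 0.1076 in AI-10-49. Library totals are not given in the sources used here. Neither this background nor the summit reads given below were scaled to library size, so reads of the 2 groups are not on a common scale. Around 14 marker genes, 6 of 8 myeloid loci had a shared region (CEBPA and ELANE had none), as did 3 of 6 loci of other cell types. Those were CD3E, PAX5 and EBF1, whereas HBB, ALB and EPCAM had none.

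Sequence of the regions themselves could not be read, since no genome of build hg19 was given. Promoters of genes at whose approximate starts a member lay are shown instead, from RefSeq (GRCh38.p14), because members at gene starts differed from other members in rank change. Of 110 genes named at the chains, 91 had a RefSeq promoter, and 71 of these had a member within 1 kb of the start. The 3 genes with the highest and the 3 with the lowest rank change, among those with a single RefSeq start, are printed, whether or not the groups overlapped. Each line gives the 250 bases before the start on the gene's strand, with capitals for every match, on either strand, to the RUNX core TGTGGT, the CCAAT box CCAAT, the TATA box TATAAA, the ETS site CCGGAAG, the GC box GGGCGG or the cyclic AMP element TGACGTCA. The letters of these motifs do not contain each other. INO80B encodes a subunit of the INO80 chromatin remodeller (chr2:74454837-74455086, plus strand), DDX39B an RNA helicase of mRNA export (chr6:31542004-31542253, minus strand) and APEX1 a DNA repair endonuclease (chr14:20454976-20455225, plus strand). H1-2 encodes a linker histone (chr6:26056471-26056720, minus strand), H3C3 a copy of histone H3 (chr6:26045134-26045383, plus strand) and TENT5A a non-canonical poly(A) polymerase (chr6:81752682-81752931, minus strand).
INO80B: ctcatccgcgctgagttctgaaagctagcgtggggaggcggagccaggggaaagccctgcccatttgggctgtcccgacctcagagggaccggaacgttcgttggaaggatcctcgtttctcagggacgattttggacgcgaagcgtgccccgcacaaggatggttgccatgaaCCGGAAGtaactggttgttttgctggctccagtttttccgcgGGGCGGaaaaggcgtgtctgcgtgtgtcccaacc
DDX39B: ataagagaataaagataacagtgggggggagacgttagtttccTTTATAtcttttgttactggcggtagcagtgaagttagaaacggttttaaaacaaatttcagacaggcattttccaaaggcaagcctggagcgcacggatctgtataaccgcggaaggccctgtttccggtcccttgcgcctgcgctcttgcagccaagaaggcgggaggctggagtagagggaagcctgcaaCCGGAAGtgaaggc
APEX1: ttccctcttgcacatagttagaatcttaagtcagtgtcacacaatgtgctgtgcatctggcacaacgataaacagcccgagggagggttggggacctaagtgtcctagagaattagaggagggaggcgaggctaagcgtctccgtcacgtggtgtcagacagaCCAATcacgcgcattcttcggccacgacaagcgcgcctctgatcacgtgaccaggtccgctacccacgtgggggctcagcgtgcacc
H1-2: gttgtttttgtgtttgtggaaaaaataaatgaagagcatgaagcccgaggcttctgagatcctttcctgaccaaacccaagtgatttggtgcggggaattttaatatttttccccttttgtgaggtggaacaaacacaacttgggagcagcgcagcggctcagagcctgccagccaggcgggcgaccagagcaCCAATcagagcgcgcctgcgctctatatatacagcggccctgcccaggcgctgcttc
H3C3: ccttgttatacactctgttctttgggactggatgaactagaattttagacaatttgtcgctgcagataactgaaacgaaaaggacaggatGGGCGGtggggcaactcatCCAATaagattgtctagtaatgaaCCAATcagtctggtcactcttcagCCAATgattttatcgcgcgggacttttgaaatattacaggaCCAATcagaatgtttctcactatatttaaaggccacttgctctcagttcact
TENT5A: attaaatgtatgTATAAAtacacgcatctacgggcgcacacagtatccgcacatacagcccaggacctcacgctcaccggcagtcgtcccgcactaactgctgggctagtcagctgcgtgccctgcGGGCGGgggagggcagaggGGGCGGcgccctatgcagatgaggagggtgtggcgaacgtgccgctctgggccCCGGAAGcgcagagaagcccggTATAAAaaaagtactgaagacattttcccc

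Among 52 start genes with a single RefSeq start, 34 promoters (65.4%) held the GC box, against 40.9% of all 22114 genes of the table with a single start. The CCAAT box was held by 26 of the 52, against 33.4% of all, and 9 of those 26 were among the 12 histone genes. The TATA box was held by 14 (26.9%, against 11.8%), and 8 of those 14 belonged to the 12 histone genes among them. The ETS site was held by 8 (15.4%, against 8.90%). The RUNX core was held by 5 (9.62%, against 11.2%). These counts describe letters in a window and no binding.

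The chains were short. Of the 112, 73 had 5 members, 27 had 6, 6 had 7, 3 had 8 and 3 had 9. Their median span was 26.8 kb (2.80 to 60.6 kb), and together they covered 3025 kb. The shortest, at chr6:58776508-58779308, had gaps of at most 0.147 kb. Of 508 adjacent pairs of members, 101 had a gap of up to 1 kb. Whether such close members are separate sites or pieces of a single stretch was not tested. The median gap between members was 5.74 kb, against 38.2 kb between neighbouring shared regions as a whole. Just outside the rule lay 242 chains of exactly 4, with 968 regions. There were 456 gaps of 11.5 to 12.5 kb, which joined a chain, and 415 gaps of 12.5 to 13.5 kb, which did not. The rank change described next had a median of 0.625 points in chains of 4 and 0.545 points in chains of 5. Ranked on fold instead, the medians were −0.301 points in chains of 4 and −1.56 points in chains of 5, a wider step. Whether the threshold sets these chains apart was not tested. The number of members depended on the libraries used, being 1041 without DMSO replicate 2 and 940 without AI-10-49 replicate 1.

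Chains were unevenly spread. Chromosomes 1 and 8 held 15 chains and 83 members each and chromosome 11 held 13 chains and 75 members, whereas chromosome 21 held none of its 315 shared regions in a chain. As a share of its shared regions, chromosome 8 had 4.36% clustered, chromosome 11 had 3.84% and chromosome 1 had 3.01%.

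To place a region within its library, each shared region was given the percentile of its deposited −log10 p-value among the 28368 shared regions of that library. The p-value and fold are the authors' own values per peak. The rank change of a region is its mean percentile in the 2 AI-10-49 libraries minus that in the 2 DMSO libraries, in percentile points. A region is called higher where both AI-10-49 percentiles lay above both DMSO percentiles, and lower in the opposite case. A lower rank can reflect fewer cells with the site open or less opening per cell, which these bulk data cannot tell apart.

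Clustered regions as a whole stood slightly below the middle of the ranks in each library. Members had a median percentile of 47.1 and 44.9 in the DMSO libraries (replicates 1 and 2) and of 46.6 and 46.2 in the AI-10-49 libraries. Isolated regions stood at 50.6, 52.3, 48.7 and 48.9 in the same order. Members thus lay below isolated regions in each library: the median of members minus that of isolated regions was −3.49 and −7.43 points in DMSO and −2.07 and −2.78 points in AI-10-49. The gap was narrower with drug by 3.04 points (−2.42 ± 0.497 in AI-10-49 against −5.46 ± 2.78 in DMSO, SD, n = 2 each, exact permutation p = 0.33, the smallest this design can give). The 2 DMSO libraries alone differed by 3.94 points, which is more than the difference between groups. Ranked on fold instead, the gap was 1.45 and −2.04 points in DMSO and 0.0203 and −2.72 points in AI-10-49. The difference between groups then had the opposite sign, −1.05 points (exact permutation p = 0.667). On neither scale was the difference between groups larger than that between the DMSO replicates, which was 3.50 points on the fold scale. The value of 3.04 points became 6.34 without DMSO replicate 1 and 4.95 without AI-10-49 replicate 2. It was −6.25 with a chaining gap of 5 kb and −2.05 with peaks from a −log10 q-value of 5 upwards.

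**Figure D1:**
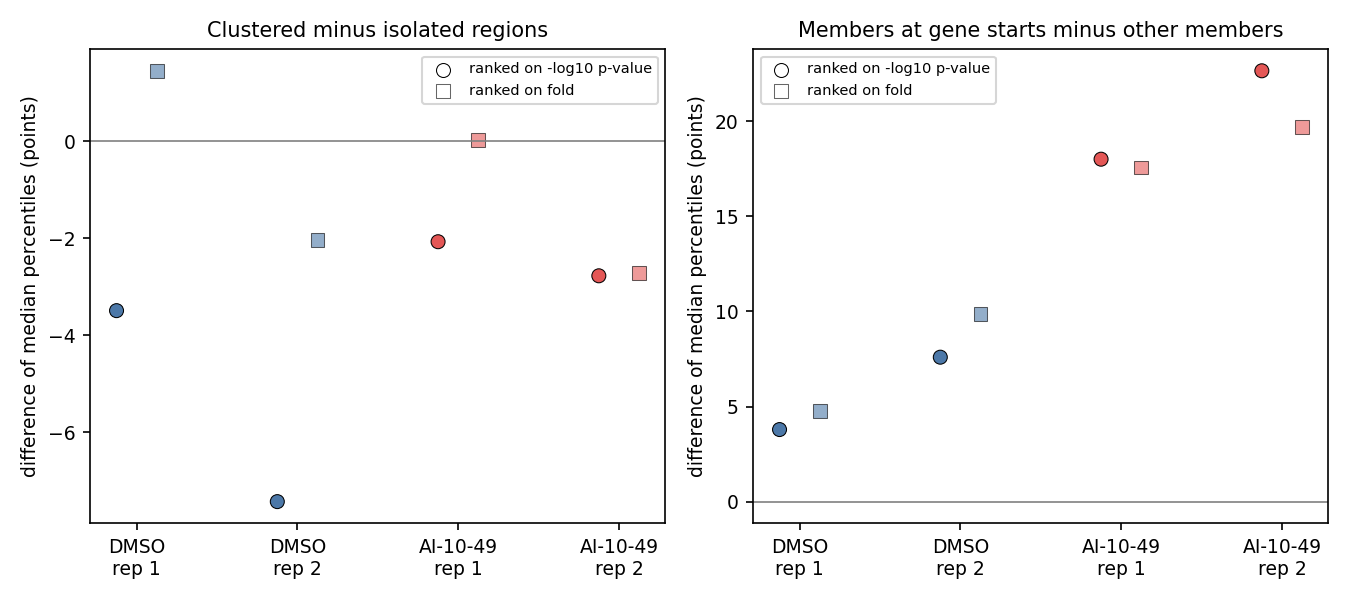
Difference of median percentiles in each of the 4 libraries, ranked on −log10 p-value (circles) or fold (squares), DMSO in blue and AI-10-49 in red. On the left, clustered minus isolated regions lie between −7.43 and 1.45 points with no order that holds for both scales, and on the right, members at named gene starts minus other members are at 3.79 and 7.59 points in DMSO and 18 and 22.7 points in AI-10-49 on the −log10 p-value scale.

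Member by member, 128 of 620 (20.6%) were lower and 140 (22.6%) were higher. Over all shared regions 18.8% were lower and 19.6% were higher, so both shares are near the background. Of isolated regions, 1228 (20.6%) were lower and 1014 (17%) were higher. On the fold scale 138 members (22.3%) were lower, against 18.2% of all shared regions, and 117 (18.9%) were higher, against 19.2%. The median rank change of members was 0.569 points on the −log10 p-value scale and −1.34 points on the fold scale, and that of isolated regions was −1.15 and −0.347 points.

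Members sat in a raised local background, as did other shared regions with close neighbours. Their local background was over 1.5 times the library's most frequent value at 97.9% and 98.2% of members in DMSO and at 95.8% in each AI-10-49 library. Among isolated regions it was so at 76.5% and 79.6% in DMSO and at 67.5% and 70.1% in AI-10-49. In chains of exactly 4 it was so at 96.1% and 96.9% in DMSO and 92.8% and 94.0% in AI-10-49, and over all shared regions at 86.4%, 88.2%, 80.6% and 82.2%. Summit reads were low in both classes, with medians of 9, 8, 10 and 12 in members and 7, 7, 8 and 9 in isolated regions, in the same order of libraries. Members were slightly wider (median 218 bp against 199 bp). The part of this background in the differing signs on the 2 scales was not tested.

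Members of a chain mostly moved in both directions. The median rank change of a chain ranged from −27.3 to 26.5 points, being below 0 in 60 chains and above 0 in 52 (70 and 42 on the fold scale). In 24 of the 112 chains the median percentile was higher in both AI-10-49 libraries than in both DMSO libraries, and in 21 it was lower. Both counts are near the shares of single shared regions called higher (19.6%) and lower (18.8%). No chain had every member below 0, and 8 had every member above 0. Members at the ends of chains had a median rank change of −1.15 points (n = 224) and inner members 1.75 points (n = 396).

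The 3 chains with 9 members were led by a stretch of the major histocompatibility complex at chr6:31509720-31566575, which holds DDX39B, NFKBIL1, a nuclear IκB-like gene, the cytokine genes LTA, TNF and LTB, and LST1, a leukocyte transcript. Of its 9 members, 6 were higher, 1 was lower and in 2 the groups overlapped. Over all shared regions 19.6% were higher and 18.8% were lower. The counts given for single chains below stand against the same shares and rest on few members each. Its median percentile was 14.6 and 13.4 in DMSO and 31.5 and 48.2 in AI-10-49, and its median rank change was 21.9 points (17.7 on the fold scale). The members were weak sites: the member at the start of NFKBIL1 (chr6:31515274-31515515) had 6 and 4 summit reads in DMSO and 15 and 12 in AI-10-49, and percentiles of 18.7 and 8.05 against 73.5 and 51.2. The member at the start of DDX39B (chr6:31509720-31509910) had 5 and 6 reads against 12 and 14, and percentiles of 7.37 and 22.5 against 60.7 and 60.4. A neighbour within the same kilobase (chr6:31510098-31510211) was lower, with percentiles of 2.26 and 22.5 against 0.0987 and 0.925. Even the strongest member of this chain, at LST1 (chr6:31554363-31554753), stood at 22.5 and 15.1 in DMSO and at 40.4 and 74.1 in AI-10-49. The 2 AI-10-49 libraries differed widely at several of these sites, as the values show. No member lay within 1 kb of the approximate start of LTA, TNF or LTB.

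The chain at chr3:50627948-50670088 holds CISH, a cytokine-induced inhibitor of STAT signalling, and MAPKAPK3, a stress kinase. It had 9 members, a median rank change of −5.60 points, 1 lower member and no higher one. The lower member (chr3:50657919-50658165) had percentiles of 85.1 and 89.8 in DMSO and 41.1 and 69.8 in AI-10-49. The member at the starts of CISH and MAPKAPK3 (chr3:50649470-50649682) was the highest of the chain in rank change, at 17.5 points, yet its groups overlapped: 90.3 and 56.2 in DMSO, 92.2 and 89.5 in AI-10-49.

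Both large chains in the histone gene cluster of chromosome 6 held many histone gene starts. Histone genes are compact, numerous and near-identical in sequence, and the treatment of reads that match several copies is not given in the sources used here, which leaves their values uncertain. The chain at chr6:26021627-26056792 (9 members, from H4C1 to H1-2) had a median rank change of 2.72 points, and that at chr6:26172056-26217541 (8 members, from H2BC6 to H2AC8) had 9.65 points. H4C1 had no RefSeq promoter, so its start was not looked up. Over both chains, 11 members lay at the start of another named histone gene. Their rank change ran from −25.5 to 38.7 points with a median of 16.9, and 6 were higher and 2 were lower, against 19.6% and 18.8% of all shared regions. The member at the divergent starts of H2BC8 and H2AC8 (chr6:26216714-26217137) had percentiles of 1.65 and 36.3 in DMSO and 53.2 and 62.2 in AI-10-49. The member at H1-2 (chr6:26056392-26056792), the strongest of the first chain, moved the other way, from 84.7 and 80.2 to 57.7 and 56.2. The core histone members at H4C2 and H3C2 were higher, by 20.9 and 20.8 points. That at H3C3 changed by −20.3 points with overlapping groups.

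Of the other chains with 8 members, that at chr1:45259443-45292518 held PLK3, a stress-response kinase, and had a median rank change of −6.63 points. The member at the start of PLK3 (chr1:45265759-45266060) changed by 32.1 points, against the chain's median. The other, at PTK2B, a non-receptor tyrosine kinase of myeloid cells (chr8:27192211-27252818), had a median rank change of −5.12 points. Of its 8 members, 3 were lower and 1 was higher, against 18.8% and 19.6% of all shared regions. Its strongest member (chr8:27221315-27221553) stayed near the top in each library, at 97.5 and 92.1 in DMSO and 95.4 and 92.5 in AI-10-49. Its lower members included chr8:27192211-27192371, at 73.6 and 66.5 in DMSO and 16.4 and 44.6 in AI-10-49.

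The 6 chains of 7 members included 3 on chromosome 11 that were higher as chains. The chain at chr11:118955463-118992372 holds H2AX, the histone variant of DNA damage signalling, and DPAGT1, which starts N-glycosylation. All 7 of its members had a rank change above 0 (1.08 to 12.6 points), and 5 were higher, against 19.6% of all shared regions. It was also a strong chain, with median percentiles of 85.6 and 81.3 in DMSO and 90.3 and 91.7 in AI-10-49. The member at H2AX (chr11:118966099-118966502) had 23 and 23 summit reads in DMSO and 50 and 50 in AI-10-49, and percentiles of 87.8 and 93.2 against 98.8 and 97.5. The chain at NUMA1 and LAMTOR1 (chr11:71781006-71823966) had a median rank change of 6.87 points. It held the strongest named member, at the start of NUMA1, a mitotic spindle protein, which stood at 99.7 and 99.2 in DMSO and 99.7 and 99.8 in AI-10-49. The chain at CLP1, an RNA kinase, and ZDHHC5, a palmitoyltransferase (chr11:57406792-57441140), had a median rank change of 10.3 points. The chains at SH3BP5L and ZNF672 (chr1:249099239-249133340), at chr8:102120836-102152404 and at TENT5A (chr6:82453955-82482751) had −2.03, −9.71 and 2.46 points.

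**Figure D2:**
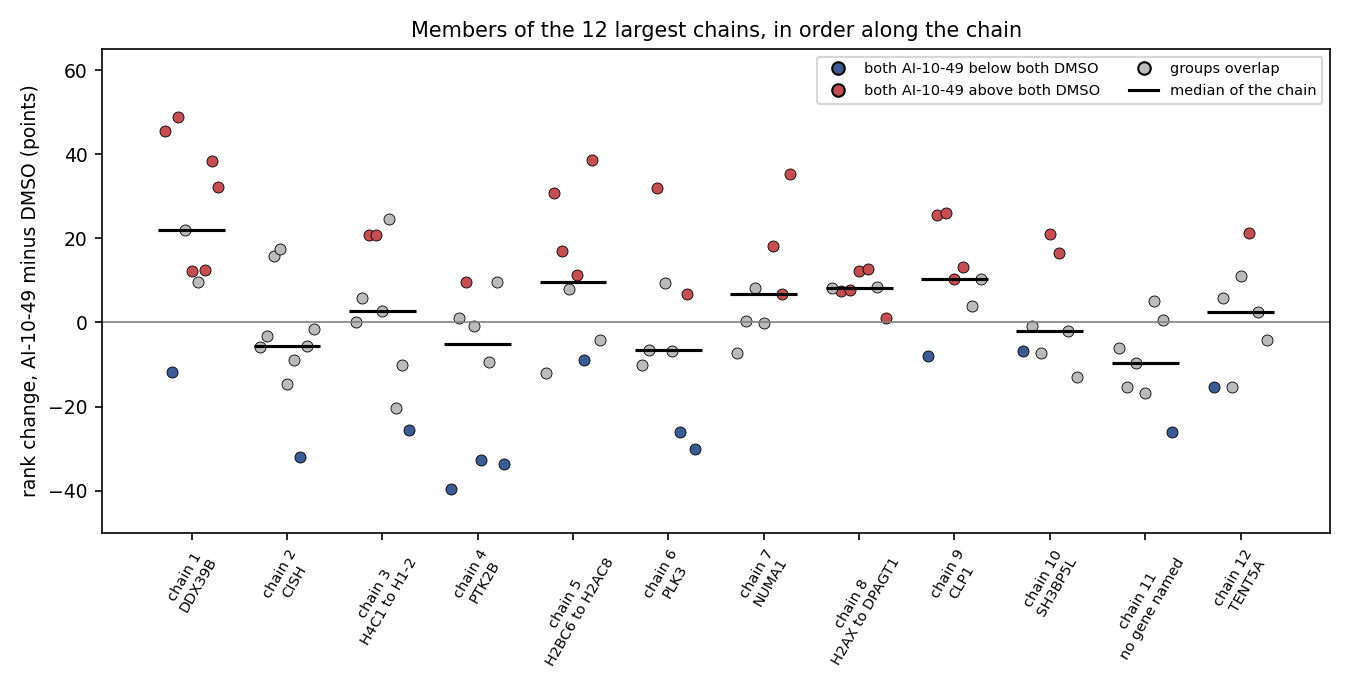
Rank change in percentile points (AI-10-49 minus DMSO, vertical axis) of each member of the 12 chains with most members, drawn in order along the chain, with the chain's median as a bar. The medians run from −9.71 points in chain 11 to 21.9 points in chain 1, and all 7 points of chain 8 (H2AX) lie above 0, while most other chains hold members on both sides of 0.

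Of the 126 listed blood genes, 4 lay within 25 kb of a chain, and each of these 4 chains had a median rank change below 0 on both scales, as did 60 of all 112 on the −log10 p-value scale. CSF1R encodes the receptor of macrophage colony-stimulating factor, and its chain (chr5:149429939-149446913, 5 members) lay at the downstream end of the gene. Its median rank change was −13.0 points, with 3 lower members and 1 higher, against 18.8% and 19.6% of all shared regions. The higher member (chr5:149432862-149433110) had percentiles of 26.4 and 3.73 in DMSO and 46.2 and 56.8 in AI-10-49. The strongest member (chr5:149438297-149438606) stood at 72.3 and 89.8 in DMSO, and at 87.8 and 25.5 in AI-10-49, so the AI-10-49 replicates lay on either side of DMSO there. A DMSO-only site lay 6.06 kb from the chain (chr5:149423683-149423881), on 3 and 4 summit reads.

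CD34 encodes the sialomucin that marks blood stem and progenitor cells. Its chain (chr1:208037381-208063992, 5 members) had median percentiles of 39.3 and 36.0 in DMSO and 23.1 and 21.4 in AI-10-49, and a median rank change of −7.72 points. Its 2 lower members were chr1:208046728-208047114, at 65.1 and 55.1 in DMSO and 19 and 39 in AI-10-49, and chr1:208037381-208037513, at 39.3 and 36.0 against 23.1 and 3.30. No member of it was higher.

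ETS1, a transcription factor of lymphoid and other blood cells, had a chain upstream of its start (chr11:128481289-128502263, 6 members) with a median rank change of −4.22 points. Its strong first member (chr11:128481289-128481519) was lower, from 98.2 and 95.6 to 89.9 and 95.2, a small step near the top of the scale. LYN, a kinase of the Src family in myeloid and B cells, had a chain upstream of its start (chr8:56756743-56777265, 5 members) with a median rank change of −2.86 points. In that chain 2 members were higher and none was lower, and the end member (chr8:56777110-56777265) went from 15.3 and 14.3 to 48.3 and 53.0.

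**Figure D3:**
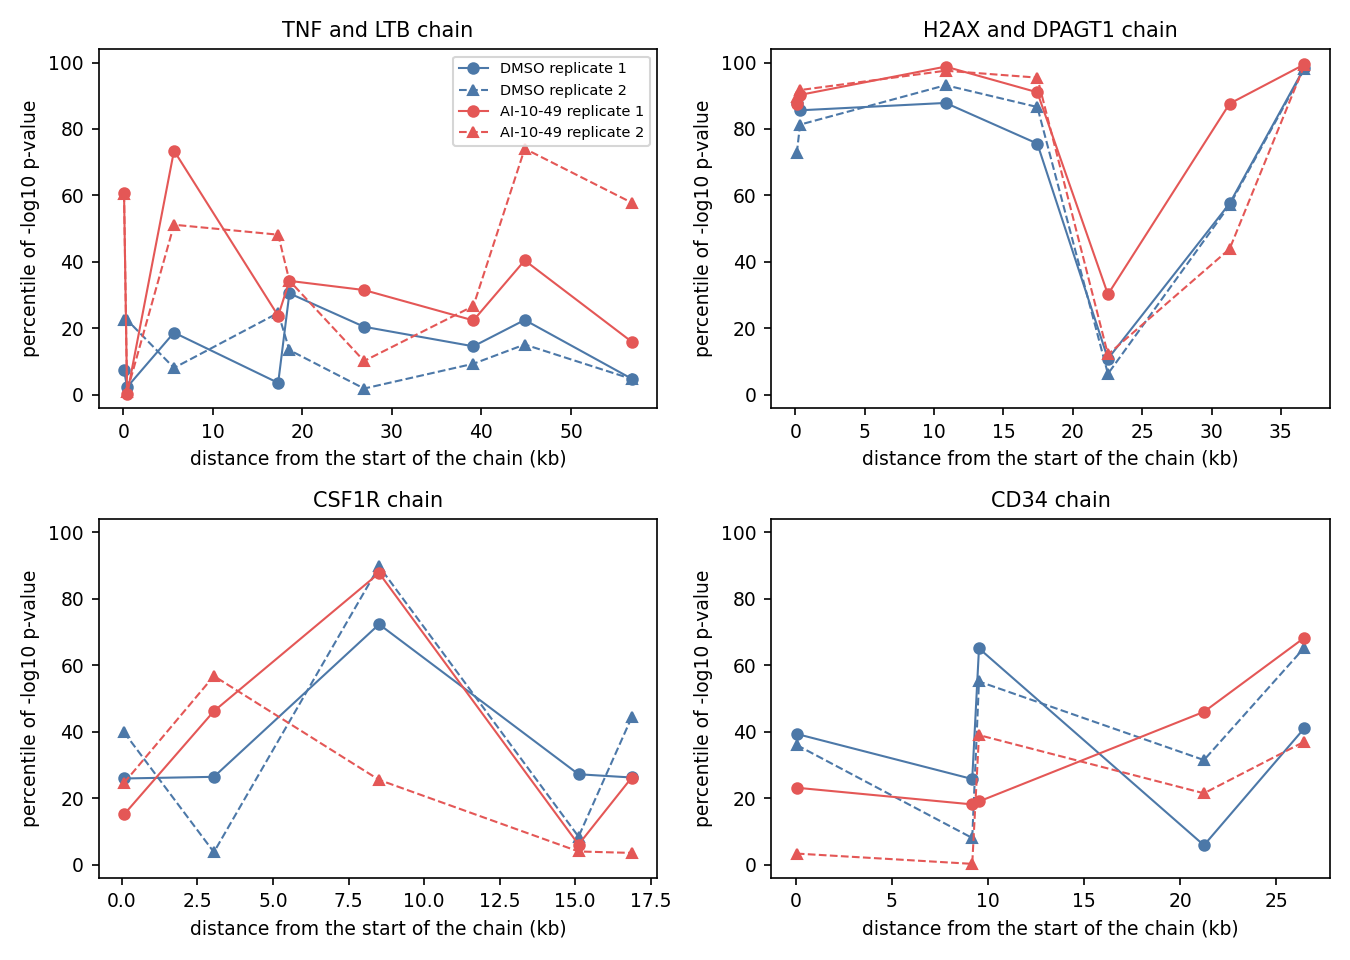
Percentile of −log10 p-value in each library (vertical axis) against the distance of each member from the start of its chain in kb, for 4 chains, DMSO in blue and AI-10-49 in red, replicate 1 with circles and replicate 2 with triangles. In the TNF and LTB chain, which has no member at the start of either gene, most red points lie above the blue ones. In the H2AX and DPAGT1 chain both colours share 1 profile with a dip at the fifth member. In the CSF1R and CD34 chains the colours cross.

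Chains were also read by their values, and those named here were chosen after these were seen. The 8 chains with every member above 0 included those at KLF16 (12.4 points), CRTC2 and SLC39A1 (17.7), CLK2 (13.3), the heat shock genes HSPA1A and HSPA1B (18.9), PSMC5 and SMARCD2 (24.8) and TRIM28 (22.1). HSPA1A and HSPA1B are near-identical copies, so reads there may be shared between them. The lowest chain median was −27.3 points, at SIGLEC15 (chr18:43407769-43419620), with percentiles of 32.7 and 29.6 in DMSO and 14.5 and 14.9 in AI-10-49. The highest was 26.5 points, at INO80B (chr2:74681978-74710544), whose groups overlapped. Among single members, chr16:2014775-2015060, beside the ribosomal protein gene RPS2, had the highest rank change of all 620, 74.9 points, with 5 and 5 reads in DMSO and 16 and 25 in AI-10-49. RPS2 had no RefSeq promoter, so this member is not among the start members compared below. The member with the lowest, −52.1 points, was chr14:81636073-81636187, with 13 and 9 reads against 6 and 7.

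Within the chains, members at named gene starts differed from the rest. For each gene only the member nearest to its start was taken, and any further member within 1 kb counts among the others. The lower neighbour of the DDX39B start member, for example, is among the others. The 71 genes with a member at the start shared 69 members. Their median percentile was 50.7 and 51.5 in DMSO and 62.7 and 67.3 in AI-10-49, whereas that of the other 551 members was 46.9 and 43.9 in DMSO and 44.6 and 44.7 in AI-10-49. Start members thus lay above the others by 3.79 and 7.59 points in DMSO and by 18 and 22.7 points in AI-10-49. The difference widened by 14.6 points (20.3 ± 3.29 in AI-10-49 against 5.69 ± 2.69 in DMSO, SD, n = 2 each, exact permutation p = 0.33, the smallest possible), and the libraries of the 2 groups did not overlap. Ranked on fold it widened by 11.3 points, from 4.77 and 9.87 to 17.6 and 19.7. It ranged from 8.80 to 22.9 points over 14 alternative settings, none of which changed its sign. Among these, the replicate block, which averages differences of same-numbered libraries, gives the same widening by definition. Without AI-10-49 replicate 2 it was 9.77 points, and the lone AI-10-49 library then did not lie beyond both DMSO libraries (exact permutation p = 0.67). In chains that hold both kinds of member it widened by 8.80 points.

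Of the 69 start members, 37 (53.6%) were higher and 5 (7.25%) were lower, against 19.6% and 18.8% of all shared regions. On the fold scale 33 were higher and 5 were lower. Of the other members, 103 (18.7%) were higher and 123 (22.3%) were lower. In the 67 chains with no start member, 54 of 355 members (15.2%) were higher and 95 (26.8%) were lower. These chains are not all away from gene starts. Some hold named genes whose starts were not looked up for want of a RefSeq promoter, such as PTK2B, ETS1 and LYN. Gains were found at genes of many kinds, among them the proteasome ATPase gene PSMC5 (57.0 points), NFKBIL1 (48.9), INO80B (47.4), DDX39B (45.6), APEX1 (44.7), SMARCD2, a subunit of the SWI/SNF remodeller (35.5), and RPS6KB2, a ribosomal S6 kinase (33.7). The 5 lower members lay at the starts of ARMC5 (−32.9 points), H1-2 (−25.5), H4C5 (−8.91), GALC (−6.25) and CXXC1 (−0.368). At H3C3 (−20.3) and TENT5A (−15.3) the groups overlapped, TENT5A standing at 27.2 and 62.2 in DMSO and 32.3 and 26.5 in AI-10-49.

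The genes were named after the chains' positions were known and their starts are approximate, so the set is neither complete nor independent of these data. No named gene on chromosome 8 had a RefSeq promoter. All 83 members on chromosome 8, with a median rank change of −5.14 points, therefore count among the other members. No alternative setting left this chromosome out. At starts of the listed blood genes that lay in shared regions outside the chains, 14 of 43 regions (32.6%) were higher and 10 (23.3%) were lower, with a median rank change of 10.5 points. Both shares lay above those of all shared regions (19.6% and 18.8%), whereas among start members the lower share lay below it. The difference between the sets was not tested. Start members were wider (median 287 bp against 210 bp). Their local background was also higher, at medians of 0.428 and 0.365 reads per base in DMSO and 0.594 and 0.710 in AI-10-49, against 0.370 and 0.332, then 0.431 and 0.492, at the other members. These values were not scaled to each library's most frequent background. That background was itself 0.0613 and 0.06 reads per base in DMSO and 0.0965 and 0.1076 in AI-10-49. The part of local background in the change was not tested.

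**Figure D4:**
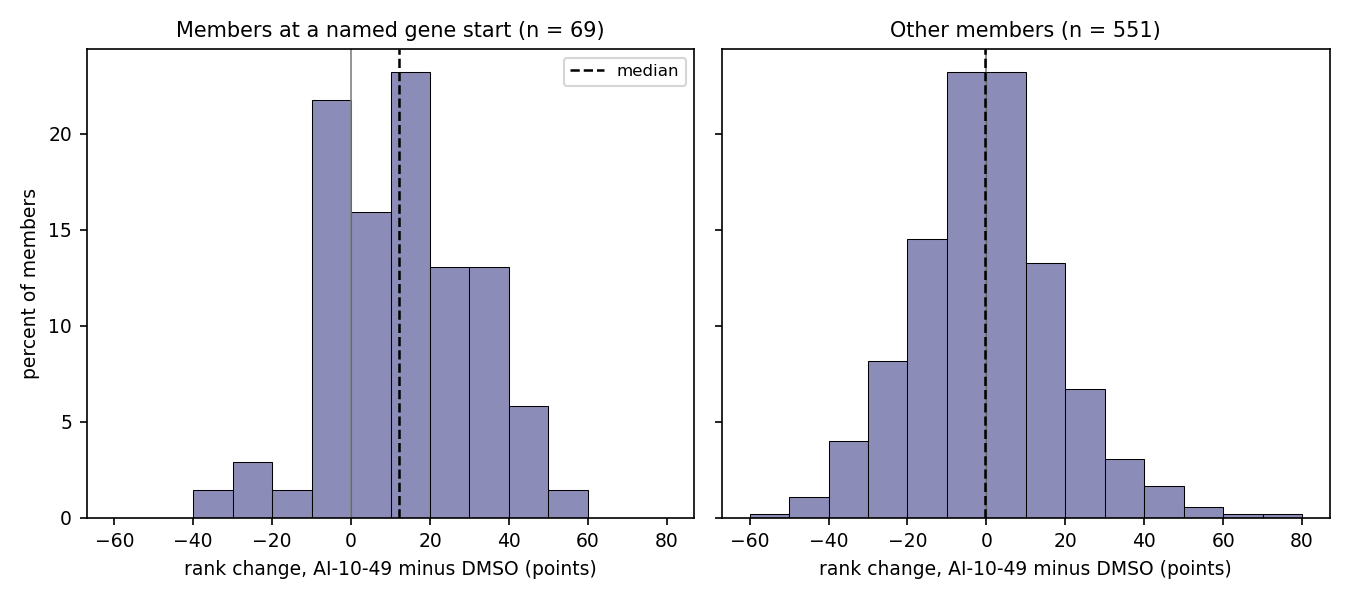
Share of members (percent, vertical axis) by rank change in bins of percentile points (AI-10-49 minus DMSO, horizontal axis) for 69 members at a named gene start and 551 other members, with the median dashed. The start members centre on 12.2 points and the others on −0.251 points.

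Sites near the chains that were lost from the lists with drug were then counted. Within 12.5 kb of a member, 52 regions were in both DMSO lists but not in all 4, and 21 of them (40.4%, 95% interval 27.0 to 54.9) were DMSO-only, that is, in neither AI-10-49 list. Near isolated regions the share was 313 of 791 (39.6%, 36.1 to 43.1), and over all such regions it was 40.3%. With all 4 lists, the shares near members and near isolated regions differed by less than their counting error. Within 5 kb they were 9 of 32 near members and 95 of 269 near isolated regions. With a single DMSO list both shares were larger. Without DMSO replicate 1 they were 52.6% (45.3 to 59.9) near members and 62.4% (60.2 to 64.5) near isolated regions. Those intervals did not overlap. Without DMSO replicate 2 the shares were 59.6% (52.8 to 66.0) and 61.7% (59.6 to 63.8).

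Of the AI-10-49 sites near the chains, few were absent from both DMSO lists. Of 51 regions in both AI-10-49 lists but not in all 4, 6 (11.8%, 4.44 to 23.9) were AI-10-49-only, against 181 of 661 (27.4%, 24 to 31) near isolated regions and 24.8% over all such regions. The intervals near members and near isolated regions did not overlap at 12.5 kb, but did at 5 kb (6 of 40, 15%, 5.71 to 29.8, against 28.7%, 24.3 to 33.4) and at 25 kb (13 of 77, 16.9%, 9.31 to 27.1, against 25.2%, 22.6 to 28). The intervals cover counting of sites in these lists and not variation between experiments. This share was not computed with lists of equal length, with the q-value filter or leaving out a library.

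**Figure D5:**
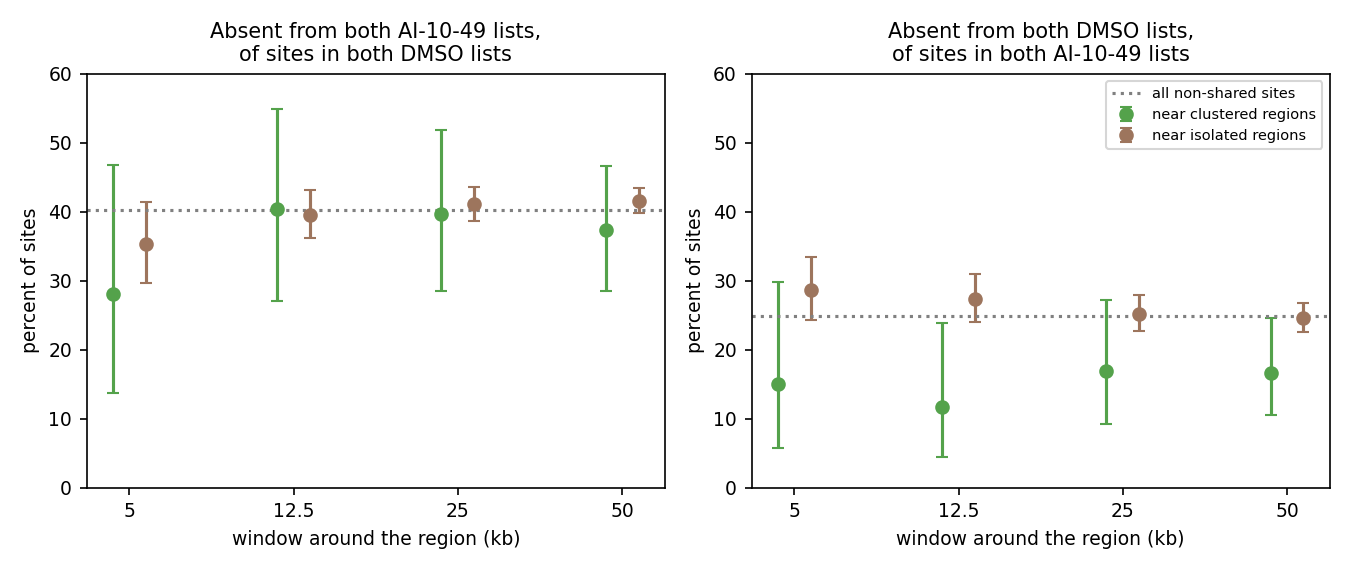
Percent of nearby sites (vertical axis, with exact 95% intervals) by window around the region in kb, near clustered regions in green and near isolated regions in brown. On the left, sites of both DMSO lists that were in neither AI-10-49 list stand at 40.4% and 39.6% at 12.5 kb, and on the right, sites of both AI-10-49 lists that were in neither DMSO list stand at 11.8% and 27.4%, with the dotted line at the share of all such sites.

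Of the 27 sites near members that were in a single group's lists, 21 (77.8%, 57.7 to 91.4) were DMSO-only, against 313 of 494 (63.4%, 58.9 to 67.6) near isolated regions. With every list cut to its strongest 47747 peaks, the length of the shortest list, these were 6 of 12 and 169 of 449 (37.6%). Without AI-10-49 replicate 1 the share near members was 37.8%, and without AI-10-49 replicate 2 it was 42.0%. In these 3 settings DMSO-only sites no longer outnumbered AI-10-49-only sites near members.

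DMSO-only sites lay near 19 chains and AI-10-49-only sites near 6, and 88 chains had neither. The median of chain rank changes was −1.08 points where a DMSO-only site lay near and −0.251 points in the other 93. Per megabase of window there were 3.61 DMSO-only sites near members and 2.08 near isolated regions, and 1.03 and 1.203 AI-10-49-only sites. In wider windows AI-10-49-only sites were denser near members, at 1.51 against 0.894 per megabase within 25 kb and 1.41 against 0.748 within 50 kb, although their share of AI-10-49 sites there was smaller. The DMSO-only sites near chains had a median of 4 summit reads in the weaker DMSO library, against 3 for all DMSO-only sites, and 9 of 21 lay inside a chain's span. Examples are chr2:159981278-159981374 at TANC1, a synaptic scaffold gene (9 and 10 reads), chr11:109966497-109966575 at ZC3H12C, a zinc finger gene (9 and 7), and chr14:93116414-93116585 at RIN3, a Rab5 regulator (7 and 6). The chain at CYB561 had 2 such sites, with 6 and 6 reads (chr17:61502892-61502980) and 10 and 8 reads (chr17:61519933-61520057). Of the 6 AI-10-49-only sites, 3 lay in or beside the chains of chromosome 6 described above, 1 inside the second histone chain, 1 just before the first and 1 in the chain with TNF (chr6:31564867-31565007, 6 and 3 reads). Another lay beside the start of PSMC5 (chr17:61904410-61904548, 6 and 11 reads).

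The rank change of members relative to isolated regions differed between chromosomes. On chromosome 19, members had a median of 10.05 points and isolated regions 0.709 points. On chromosome 6 the medians were 6.77 and −1.47 points, and on chromosome 5 they were −6.76 and −3.54 points. Members lay above isolated regions on 8 of 12 chromosomes with at least 20 regions of each kind.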

How the data were processed

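ATAC-seq peak lists of 2 DMSO and 2 AI-10-49 libraries were used. The submitters' processing notes give the build as hg19 and list MACS2 2.1.0, Bowtie2, cutadapt 1.3, Picard 1.96 and deepTools as tools. The settings of the peak caller are not given in the sources used here. For each peak the authors deposited a whole-number score, which was left unused, a fold enrichment at the summit, and −log10 values of p and q.

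Peaks on the 22 autosomes were merged at 1 bp overlap, and rows with equal coordinates were collapsed to the peak with the highest −log10 p-value. Within each library the shared regions were ranked by the deposited −log10 p-value of their strongest peak, or by fold as an alternative. Reads at a summit were solved for as the whole number that, in a Poisson model, matches both deposited values to within 0.001, which gave whole reads for 99.99% of peaks in each list and none for 4 or 5 peaks per list.

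Library values were compared by a two-sided exact permutation test, whose smallest p for 2 against 2 libraries is 0.333. Shares carry exact 95% binomial intervals (Clopper-Pearson), which cover counting error only. Computation used Python 3.11.15, pandas 2.3.3, numpy 2.4.6 and scipy 1.17.1, and the scripts were tested on simulated peaks.

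The members and all gene lists were chosen with earlier results of these data known. The rule for naming took the 12 chains with most members and the strongest member of each. It also took chains within 25 kb of a gene in a list of 126 blood genes, and the chains of 8 or more members by rank change. The 110 genes named at chains, 4 of them also in that list, were named after the chains' positions had been seen. Gene positions were approximate hg19 positions from general knowledge. All 110 symbols were found on the same chromosome in RefSeq (GRCh38.p14), 0 of 90 neighbouring pairs were out of order, and 100 gene lengths lay within 2 kb of RefSeq's. The alternatives tried were other gaps, chain sizes, distances, peak filters and overlaps, ranking on fold or reads, the replicate block, and leaving out each library. Values for gene starts and ranking on reads were added after seeing the data. Sex chromosomes were left out by the rule. A few named items are not reported here.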

Additional observations from a re-analysis of the deposited data

How the results depend on the processing

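The widening of the difference between start members and other members kept its sign in each of the 14 alternatives (8.80 to 22.9 points; 9.77 to 18.2 leaving out a library). The difference between clustered and isolated regions kept its sign in 15 of 18 alternatives. It was reversed with a chaining gap of 5 kb (−6.25 points), with peaks kept from a −log10 q-value of 5 upwards (−2.05) and ranked on fold (−1.05), and leaving out a library gave 3.38 to 6.34 points. Replicate numbers do not pair the libraries by the labels, and deviations of same-numbered libraries had r = 0.0554 over members. The replicate block gave 3.04 points (exact p = 0.5, the smallest possible) and 14.6 points for starts (exact p = 0.5), and no exact test over these libraries could pass 0.05. It returns the main values by definition, so in this alternative the sign could not change.

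The number of clustered regions was 26 with gaps of 5 kb, 3379 with gaps of 25 kb, 4207 with chains of 3 or more, 135 with 50% reciprocal overlap, 55 with the q-value filter, 299 with lists of equal length, and 801 to 1041 leaving out a library. No chain had 10 members, so that setting has no value. The loss share near clustered regions was 0% with the q-value filter (0 of 1), 25% with lists of equal length (6 of 24) and 52.6 to 100% leaving out a library. Gaps of 5 kb left no site to count it. Near isolated regions it was 28.7%, 32.5% and 61.7 to 100% in the same order, and 35.3% within 5 kb. The 100% without an AI-10-49 library follows from the definition, since a region in both DMSO lists and not in all lists is then absent from the lone AI-10-49 list.

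The DMSO-only share of changed sites near clustered regions was 0% with gaps of 5 kb (0 of 1) and with the q-value filter (0 of 1), 49.2% with gaps of 25 kb, 47.3% with chains of 3 or more, 100% with 50% reciprocal overlap (3 of 3), 50% with lists of equal length, and 37.8 to 77.9% leaving out a library. Near isolated regions it was 29.0% with the q-value filter, 37.6% with lists of equal length, 70.2% within 25 kb, 45.2% within 5 kb, and 42.6 to 79.1% leaving out a library. Beyond these definitions the causes were not tested. Low summit reads limit single members, and total depth was not given in the sources used here.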

Other observations

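Rank changes of neighbouring members of a chain were weakly alike. Over 508 adjacent pairs, Pearson's r of rank change was 0.112, against −0.0081 for the difference between DMSO replicates and −0.109 for that between AI-10-49 replicates. The pairs share libraries and local background, and the values are a description. In chains of 2 to 4 regions, r of rank change was 0.0807 over 6105 pairs. By strength, members and isolated regions differed unevenly over 5 strata of mean rank. From the weakest stratum to the strongest, the median rank change of members was −0.835, 7.53, −0.543, −1.22 and 0.286 points, and that of isolated regions −1.21, −3.32, −3.82, −1.41 and 0.185 points. On the fold scale members lay above isolated regions in the second stratum alone (5.36 against −1.95 points) and below them in the other 4, for example at −4.33 against −2.51 points in the third and −4.11 against −0.241 points in the fourth.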
